A study of Mus musculus with 6 samples.

Results

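The genes described here are 10 mouse genes of the fetal liver and of liver progenitor cells: Afp, H19, Igf2, Dlk1, Gpc3, Sox4, Sox9, Cd24a, Prom1 and Rhou. They were chosen by name, with earlier results of these data known. All 10 were found by their Entrez identifiers among the 27179 genes of each count file. The series compared Mettl3-deficient with wild-type livers of C57BL/6 mice by RNA-seq after removal of ribosomal RNA, with 3 livers in each group. Mettl3 is the enzyme that adds the m6A mark, a methyl group on adenosine, to messenger and other nuclear RNA. The labels do not say how or in which cells Mettl3 was made deficient, nor the age and sex of the animals. Nothing in the labels says whether each liver came from its own animal. Y-linked genes had 4747, 5031 and 0 counts in Mettl3-deficient replicates 1 to 3, and 6508, 0 and 0 in wild-type replicates 1 to 3. Each group thus held livers of more than 1 animal, but whether all livers were from separate animals is not known. A p-value here measures only the spread between these samples, which may be technical in part.

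Oncofetal genes are active in the fetal liver, are silenced around and after birth, and can return in regenerating livers and in liver cancer. Afp and the imprinted growth genes H19, Igf2 and Dlk1 mark hepatoblasts, the fetal precursors of hepatocytes and bile duct cells. Sox9, Sox4, Cd24a and Prom1 are used as markers of ductal and progenitor-like cells in the adult liver.

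Libraries held 34576824 to 36025772 counts in Mettl3-deficient livers and 31960205 to 34297553 counts in wild-type livers. Levels below are CPM, a count scaled to a fixed library size after TMM normalisation, which corrects for library size and for a few genes taking up many reads. Mettl3 itself had 5.96, 6.60 and 4.94 CPM in Mettl3-deficient livers, against 13.4, 14.3 and 12.1 CPM in wild-type livers, lower by a log2 change of -1.18 ± 0.20 (SE; edgeR adjusted p = 0.00797). All Mettl3-deficient libraries lay below all wild-type libraries. Hepatocyte markers were abundant in every library, and their summed level was 44329 to 70897 CPM in Mettl3-deficient livers and 132558 to 167857 CPM in wild-type livers. Most of each sum was Alb alone, with 32061 to 53329 CPM and 108639 to 141166 CPM in the same groups. The median log2 fold change of the 6 markers was -0.98, and Ttr, Apoa1, Cps1 and Tat were not called. Of these 6 markers 2 fell (Alb and Hnf4a), where 10.5% of all tested genes fell. That count was 0 when Mettl3-deficient replicate 1 or wild type replicate 2 or 3 was left out. Wild type replicate 1 stood apart on the second principal component, which held 20.2% of the variance. It was also the one wild-type library with Y-linked transcripts, which Mettl3-deficient replicates 1 and 2 shared, so sex and this library's difference cannot be told apart. In whole liver, fewer cells of a type and less RNA per cell cannot be told apart either.

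Of the 10 genes 6 rose in Mettl3-deficient livers: Afp, Gpc3, Sox4, Sox9, Prom1 and Rhou. None fell. A gene was called when its edgeR adjusted p, taken over all 14380 tested genes, was under 0.05. Of the 10 genes 9 passed the filter on low counts and 6 of these 9 were called higher, where 13.3% of all tested genes were called higher and 10.5% lower. In the same 6 genes every Mettl3-deficient library lay above every wild-type library, a pattern that 23.9% of tested genes showed. Groups lay apart in either direction in 45.7% of tested genes, with Mettl3-deficient livers lower in 21.9%, and calls in either direction were made for 23.8%. Of all calls 55.7% were higher with TMM scaling and 89.0% with library size alone. The median log2 fold change of the 9 genes was 1.33, against 0.01 over all tested genes. Since the genes were chosen with earlier results of these data known, these contrasts describe the list and are no test of it. H19, Igf2 and Cd24a were tested and not called, and Dlk1 had too few counts to test.

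**Figure D1:**
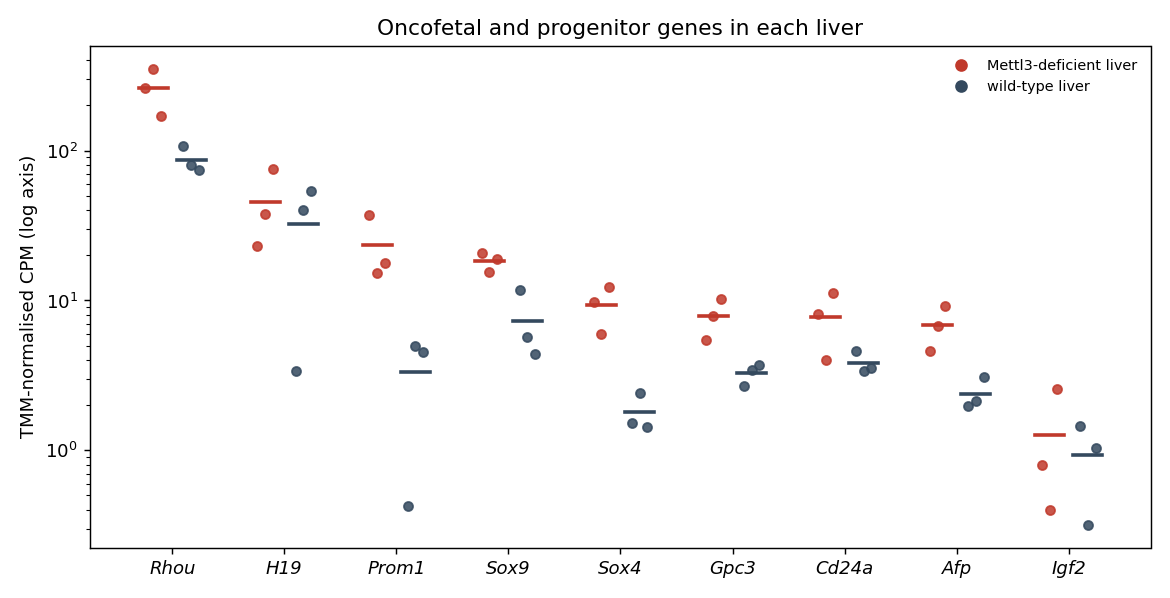
TMM-normalised CPM (log axis) of 9 genes, with 1 point per liver and a bar at the mean of 3 livers, Mettl3-deficient livers left of wild-type livers. Dlk1 is not drawn, since its highest library held 2 counts. Points of the groups do not overlap for Rhou, Prom1, Sox9, Sox4, Gpc3 and Afp, and they overlap for H19, Cd24a and Igf2.

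Afp encodes alpha-fetoprotein, the main plasma protein of the fetus and a serum marker of hepatocellular carcinoma. The gene (Entrez 11576) lies on the forward strand of chromosome 5, 90490714 to 90508907 in GRCm38. Mettl3-deficient livers held 4.59, 6.71 and 9.12 CPM, against 1.99, 2.12 and 3.07 CPM in wild-type livers. The lowest Mettl3-deficient library was above the highest wild-type library. This was a log2 fold change of 1.51 ± 0.34 (SE; edgeR adjusted p = 0.0181), or 2.84-fold. These levels rest on 185 to 360 counts per Mettl3-deficient library and 56 to 83 counts per wild-type library. The call was lost without wild type replicate 2, at an edgeR adjusted p of 0.0688.

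Gpc3 encodes glypican-3, a heparan sulfate proteoglycan held to the cell surface by a lipid anchor, which is a tissue marker of liver cancer. It (Entrez 14734) lies on the reverse strand of the X chromosome, 52272426 to 52613974. Its levels were 5.44, 7.84 and 10.3 CPM in Mettl3-deficient livers and 2.70, 3.43 and 3.73 CPM in wild-type livers. Groups did not overlap, and the spread was wider among Mettl3-deficient livers, with an SD of 2.41 CPM against 0.532 CPM in wild-type livers. Its log2 fold change was 1.25 ± 0.30 (SE; edgeR adjusted p = 0.0228). Without Mettl3-deficient replicate 2 or 3 or wild type replicate 2 or 3 it was not called, with adjusted p-values of 0.0590, 0.0511, 0.0701 and 0.0567.

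The 250 bases before the start sites of Afp and Gpc3, both called higher and ranking the libraries alike, are shown to set the sequence beside the levels. They come from RefSeq (GRCm38.p6) and read along the gene's strand, with matches on either strand in capitals. The letters searched were TATAAA (the core of a TATA box), CCAAT (the CCAAT box), GGGCGG (the box bound by Sp1) and GTTAAT (part of a site bound by liver-enriched factors).
Afp, chr5:90490464-90490713, forward strand: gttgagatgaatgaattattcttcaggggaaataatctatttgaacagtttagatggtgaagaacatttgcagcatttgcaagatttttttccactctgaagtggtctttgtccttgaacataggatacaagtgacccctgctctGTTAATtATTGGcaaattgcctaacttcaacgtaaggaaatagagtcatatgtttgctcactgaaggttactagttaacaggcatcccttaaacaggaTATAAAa
Gpc3, chrX:52613975-52614224, reverse strand: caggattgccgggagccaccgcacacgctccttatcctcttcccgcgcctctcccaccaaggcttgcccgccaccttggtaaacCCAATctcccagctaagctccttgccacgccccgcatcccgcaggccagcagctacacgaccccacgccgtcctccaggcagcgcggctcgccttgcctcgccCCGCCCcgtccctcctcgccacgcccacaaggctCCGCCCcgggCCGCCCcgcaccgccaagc

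Those windows differed in composition. The Afp window was 36% G and C and held TATAAA, beginning 7 bases before the annotated start site. Further upstream it held GTTAAT and, on the opposite strand, CCAAT. The Gpc3 window was 71.6% G and C and held a CCAAT and 3 matches to GGGCGG on the opposite strand. Of 32851 promoter windows of this length, 12.4% held TATAAA, 6.43% GTTAAT, 33.8% CCAAT and 32.7% GGGCGG, and their median G and C content was 52.4%. Of the 10 genes 7 had a window (Igf2 with 4 windows and Prom1 with 2). TATAAA and GTTAAT were found for Afp alone of these 7, CCAAT for 5 (Afp, Gpc3, Igf2, Prom1 and Sox4) and GGGCGG for 4 (Gpc3, Igf2, Prom1 and Rhou). A gene was counted here when any of its windows held the motif. The shares over all promoters are per window, so the 2 kinds of number cannot be compared directly. A match describes letters in a window and is no measured binding site.

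H19 is an imprinted long noncoding RNA expressed from the maternal allele and one of the most abundant RNAs of the fetal liver. It (Entrez 14955) lies on the reverse strand of chromosome 7, 142575530 to 142578146. Mettl3-deficient livers held 23.0, 38.0 and 75.5 CPM and wild-type livers 3.37, 39.9 and 54.1 CPM. The groups overlapped, and wild type replicate 1 lay far under the other 5 libraries. The log2 fold change was 0.49 ± 0.97 (SE; edgeR adjusted p = 0.746). It was -0.050 without wild type replicate 1 (edgeR adjusted p = 0.944) and -0.093 without Mettl3-deficient replicate 3 (edgeR adjusted p = 0.962). With the covariate for Y-linked libraries it was 1.86 ± 0.66 (SE; edgeR adjusted p = 0.0950). H19 was not called in any of the 13 alternatives, and its estimates lay on both sides of 0.

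The H19 transcript is also the precursor of miR-675, whose mature forms are given here because they are the known small RNA product of this member. Sequences are from RefSeq (GRCm38.p6), 5′ to 3′, with the seed, bases 2 to 8, in capitals.
mmu-miR-675-5p: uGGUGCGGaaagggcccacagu
mmu-miR-675-3p: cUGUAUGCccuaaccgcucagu
The mature forms lie on chromosome 7, 142577112 to 142577133 and 142577078 to 142577099, and their gene had 0 counts in all 6 libraries. It shares its 84 bases with an H19 exon, so these counts say nothing of the level of mature miR-675.

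Igf2 encodes insulin-like growth factor 2, a fetal growth factor expressed from the paternal allele in the same imprinted region as H19. Counts were few, 18 to 102 per Mettl3-deficient library and 9 to 41 per wild-type library. Igf2 (Entrez 16002, chromosome 7, 142650768 to 142666816, reverse strand) had 0.794, 0.399 and 2.58 CPM in Mettl3-deficient livers and 1.46, 0.318 and 1.03 CPM in wild-type livers. The groups overlapped over most of their range. Gm49394, an annotated gene on the same strand, shares 3596 exon bases with Igf2 and has no row in the count files, so which of them the reads came from is uncertain. A log2 fold change of 0.42 ± 0.78 (SE; edgeR adjusted p = 0.719) was fitted, and it was -0.65 without Mettl3-deficient replicate 3 (edgeR adjusted p = 0.543). Dlk1, a membrane protein related to the Notch ligands that marks hepatoblasts, had 2 counts in Mettl3-deficient replicate 3 and 0 counts in the other 5 libraries. Its gene (Entrez 13386) is on chromosome 12, 109452485 to 109463336, and no fold change is given at this depth.

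Afp, Gpc3 and H19 ranked the libraries in one order. In both genotypes replicate 3 held the highest level of each gene, replicate 2 the next and replicate 1 the lowest, though replicate numbers carry no order of their own. This order was seen in 435 of the 14380 tested genes, or 3.03%. The order counted was that of Afp itself. Any gene with this order also has each library without Y-linked transcripts above each library with them within its genotype. That wider pattern is thus no separate observation for these 3 genes, and it held for 16.1% of tested genes. What part sex plays was not tested for this order. As background, Afp, H19 and Gpc3 are known in mice as postnatal targets of the repressor Zhx2. Zhx2 had 16.8 ± 0.900 CPM in Mettl3-deficient livers and 18.6 ± 0.859 CPM in wild-type livers (SD, n = 3), and was not called (log2 fold change -0.15 ± 0.14, edgeR adjusted p = 0.461).

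**Figure D2:**
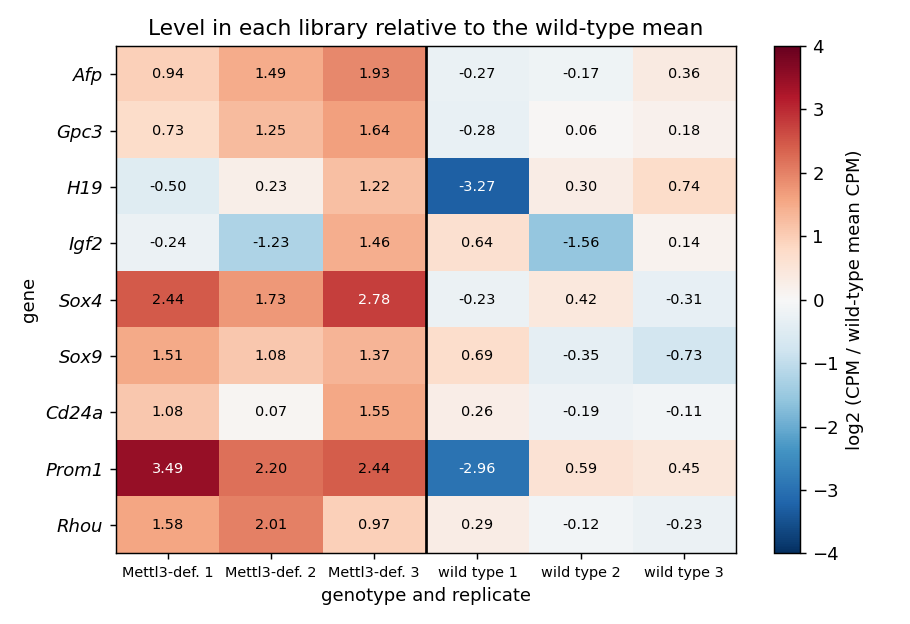
Log2 of each library's CPM over the mean CPM of the 3 wild-type livers, for 9 genes (rows) and 6 libraries (columns, Mettl3-deficient left of wild type). Sox4, Prom1, Rhou, Sox9, Afp and Gpc3 are at 0.73 or more in all Mettl3-deficient libraries, while H19 and Prom1 are at -3.27 and -2.96 in wild type replicate 1.

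Sox4 encodes a transcription factor with an HMG box DNA-binding domain that acts in progenitor cells of many tissues. Among the 9 tested genes it had the smallest p-value. The gene (Entrez 20677) has 1 exon, on the reverse strand of chromosome 13 from 28948919 to 28953699. Mettl3-deficient livers held 9.71, 5.93 and 12.3 CPM, against 1.53, 2.40 and 1.44 CPM in wild-type livers. The groups were well apart, and the log2 fold change was 2.37 ± 0.36 (SE; edgeR adjusted p = 0.00583), or 5.18-fold. The call held in all 13 alternative fits, with log2 fold changes of 2.12 to 2.83. Gm26735, a noncoding gene on the opposite strand, shares 2616 exon bases with Sox4 and has no row in the count files. Whether counting used strand is not stated, and without strand their reads could not be told apart.

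The window before Sox4 carried CCAAT more often than any other member's window, with 4 matches, and is shown for that reason, in the format used above.
Sox4, chr13:28953700-28953949, reverse strand: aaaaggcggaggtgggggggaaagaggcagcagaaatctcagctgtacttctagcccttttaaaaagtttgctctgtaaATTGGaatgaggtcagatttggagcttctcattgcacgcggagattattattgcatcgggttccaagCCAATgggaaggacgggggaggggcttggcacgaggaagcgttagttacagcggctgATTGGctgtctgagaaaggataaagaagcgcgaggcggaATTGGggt

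Sox9, a related factor that is kept in bile duct cells and in some periportal hepatocytes of the adult liver, also rose. It (Entrez 20682) lies on the forward strand of chromosome 11, 112782210 to 112787757. Levels were 20.8, 15.5 and 18.8 CPM in Mettl3-deficient livers and 11.8, 5.73 and 4.40 CPM in wild-type livers. Mettl3-deficient livers were close to one another, with an SD of 2.71 CPM, and wild type replicate 1 was the highest wild-type library. The log2 fold change was 1.33 ± 0.35 (SE; edgeR adjusted p = 0.0320). Among the 6 fits that left out 1 library, it was called only without wild type replicate 1, where it was 1.86 (edgeR adjusted p = 0.00427). In the other 5 the adjusted p was 0.0616 to 0.105.

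Prom1 encodes prominin-1 (CD133), a membrane protein of cell protrusions used to sort progenitor and cancer-initiating cells. It had the largest fold change of the 9 tested genes and also a wide spread. The gene (Entrez 19126) spans 43993621 to 44102047 on the reverse strand of chromosome 5. Mettl3-deficient livers held 37.2, 15.2 and 17.9 CPM and wild-type livers 0.426, 4.99 and 4.51 CPM, the first of these from 12 counts. The groups did not overlap. Gm16401 shares 424 exon bases with Prom1 on the opposite strand, with the same limit as for Sox4. For Prom1 the log2 fold change was 2.83 ± 0.81 (SE; edgeR adjusted p = 0.0484), and without wild type replicate 1 it was 2.30 (edgeR adjusted p = 0.0135). Leaving out any other library ended the call, with adjusted p-values of 0.0813 to 0.127, as did the replicate number as a block (0.193), the covariate for Y-linked libraries (0.0639) and no filter on low counts (0.115).

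Cd24a encodes a small, heavily glycosylated surface protein of ductal progenitors that is also found on B cells and immature blood cells. It (Entrez 12484) lies on chromosome 10, 43579169 to 43584265, forward strand. Its levels were 8.09, 4.03 and 11.2 CPM in Mettl3-deficient livers and 4.58, 3.36 and 3.55 CPM in wild-type livers. Mettl3-deficient replicate 2 lay under wild type replicate 1, and the other Mettl3-deficient libraries lay above all wild-type libraries. The log2 fold change was 1.02 ± 0.38 (SE), not called at an edgeR adjusted p of 0.0858. It was called by DESeq2 (adjusted p = 0.0412), with library size alone (edgeR adjusted p = 0.0159) and without Mettl3-deficient replicate 2 (1.33, edgeR adjusted p = 0.0292). Copies related to Cd24a exist in the mouse genome, so its counts may miss reads that fit a copy.

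Rhou, a small GTPase that acts on the actin cytoskeleton and cell adhesion and is a target of Wnt signalling, was the most abundant of the 10 genes. It (Entrez 69581) lies on the forward strand of chromosome 8, 123653929 to 123663880. Mettl3-deficient livers held 261.2, 352 and 170.4 CPM, against 106.8, 80.3 and 74.3 CPM in wild-type livers. The groups did not overlap, and the counts behind them were 2010 to 15882 per library. Rhou had a log2 fold change of 1.58 ± 0.30 (SE; edgeR adjusted p = 0.0109), or 3.00-fold. It was called in all 13 alternative fits, with the highest edgeR adjusted p at 0.0496.

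**Figure D3:**
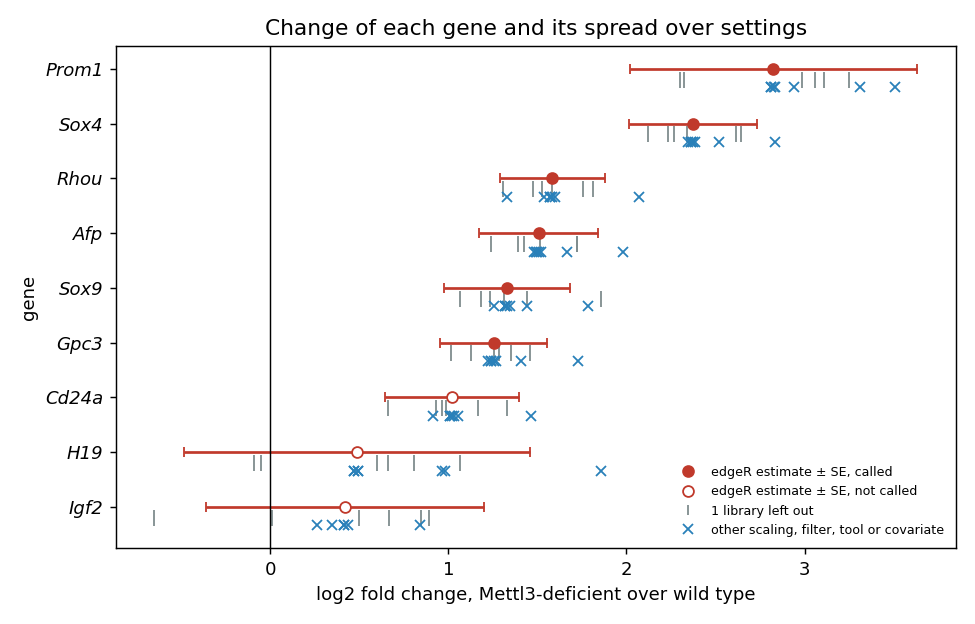
Log2 fold change (Mettl3-deficient over wild type) of the 9 tested genes, with filled points for called genes, open points for the others and bars of 1 SE. Grey ticks leave out 1 library each and blue crosses use another scaling, filter, tool or covariate. Estimates for H19 and Igf2 cross 0, and those for the other genes stay above 0.66.

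The libraries with Y-linked transcripts were 2 Mettl3-deficient and 1 wild-type, and those without were 1 and 2, so no test was made within a set. The log2 ratio of mean CPM (Mettl3-deficient over wild type) in libraries with and without Y-linked transcripts was 1.51 and 1.81 for Afp, 1.30 and 1.52 for Gpc3, and 2.36 and 2.67 for Sox4. Each was above 1 in both sets, as were 1.52 and 1.14 for Rhou. Sox9 gave 0.62 and 1.90, Cd24a 0.40 and 1.70, and Prom1 5.94 and 1.91, all above 0 but far apart. H19 gave 3.17 and 0.68. For Igf2 the direction differed, with -1.29 and 1.93. Wild-type livers with Y-linked transcripts and Mettl3-deficient livers without them were 1 library each, with no replicate of their own. An interaction fitted in edgeR left 2 residual degrees of freedom and gave adjusted p-values of 0.0776 for H19, 0.101 for Prom1, 0.147 for Sox9 and 0.175 for Igf2. These do not show that the ratios are alike in both sets.

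To set genes of different length side by side, CPM was divided by the exon length of each gene in kb. On this scale Rhou stood first, with 68.6 ± 23.8 CPM per kb in Mettl3-deficient livers and 22.9 ± 4.54 CPM per kb in wild-type livers (SD, n = 3). H19 followed with 18.5 ± 11.0 and 13.2 ± 10.6 CPM per kb in the same groups. Next in Mettl3-deficient livers came Sox9 (4.45 ± 0.654), Prom1 (3.27 ± 1.67), Cd24a (3.01 ± 1.39), Gpc3 (2.92 ± 0.896), Afp (2.02 ± 0.673) and Sox4 (1.94 ± 0.664 CPM per kb). Neighbours from Sox9 to Sox4 in that order differed by less than the sum of their SDs. In wild-type livers the order was Sox9 (1.77 ± 0.953), Cd24a (1.48 ± 0.255), Gpc3 (1.22 ± 0.198), Afp (0.710 ± 0.175), Prom1 (0.461 ± 0.349) and Sox4 (0.374 ± 0.111 CPM per kb). Here only Gpc3 and Afp were neighbours further apart than the sum of their SDs. Igf2 was at 0.220 ± 0.203 CPM per kb in Mettl3-deficient livers and 0.164 ± 0.101 in wild-type livers, and Dlk1 was at or near 0 in both.

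The 10 transcripts did not share a density of GGACT, a common form of the short sequence in which the Mettl3 complex methylates the adenosine. In the longest annotated transcript of each gene H19 held 2.62 GGACT per kb, Prom1 1.96, Sox4 1.88 and Gpc3 1.81, above the median of 1.04 per kb over 13823 tested genes. Rhou (0.890), Sox9 (0.726), Dlk1 (0.645), Afp (0.485) and Igf2 (0.424) lay below that median. Cd24a held 0 in 1816 bases. Of the 6 genes that rose, 3 thus lay above the median and 3 below. Methylation itself was not measured.

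Of 3 other tested genes of the albumin gene cluster 2 fell and 0 rose, where 10.5% of all tested genes fell and 13.3% rose. Their median log2 fold change was -1.54. These genes, Alb, Afm and Gc, belong to the same gene family as Afp. Alb, which encodes albumin, fell to 44710 ± 11192 CPM in Mettl3-deficient livers, against 129617 ± 18198 CPM in wild-type livers (SD, n = 3; log2 fold change -1.54 ± 0.34, edgeR adjusted p = 0.0172). Afm, which encodes afamin, had 98.8 ± 14.9 and 421 ± 62.9 CPM in the same groups (log2 fold change -2.09 ± 0.22, edgeR adjusted p = 0.00187). Gc, the vitamin D binding protein, had a log2 fold change of -0.75 and was not called (edgeR adjusted p = 0.0737). The call of Alb was lost without Mettl3-deficient replicate 1 or wild type replicate 2 or 3 and with the replicate block, and that of Afm was kept in all 13 alternatives. With library size alone, under which the median gene was at 0.49, Alb was still at -1.07 and Afm at -1.62.

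Of 15 genes known to regulate Afp, 2 rose and 4 fell, where 13.3% of all tested genes rose and 10.5% fell, and the list's median log2 fold change was -0.19. The number that rose is thus at the share over all genes. Both that rose, Zbtb20 and Zfhx3, encode zinc finger repressors of Afp. Zbtb20 had 9.70 ± 3.02 CPM in Mettl3-deficient livers and 3.75 ± 0.932 CPM in wild-type livers (log2 fold change 1.37, edgeR adjusted p = 0.0203), and Zfhx3 stood at 1.06 on the log2 scale (edgeR adjusted p = 0.0381). Those that fell included Cebpa, Hnf4a and Foxa1, factors of hepatocyte genes, with log2 fold changes of -1.40, -1.17 and -0.73. Fewer were called in 5 of the fits without 1 library. With Mettl3-deficient replicate 1 or 2 left out, 0 were higher and 1 lower. With wild type replicate 2 left out the counts were 0 and 0, and with wild type replicate 3 left out 1 and 1. Without Mettl3-deficient replicate 3, 1 was higher, and with library size alone 4 were higher and 1 lower, with a median of 0.31.

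Ductal and progenitor genes other than the members also rose in part. Of 18 tested biliary and ductal progenitor genes 9 rose and 0 fell, where 13.3% of all tested genes rose and 10.5% fell. Their median log2 fold change was 1.37, against 0.01 over all tested genes. Krt23, a keratin, had 17.2 ± 3.30 CPM in Mettl3-deficient livers and 1.29 ± 0.465 CPM in wild-type livers, and Cldn4, a tight junction protein, 6.86 ± 1.82 and 0.577 ± 0.157 CPM (SD, n = 3). Tspan8, a tetraspanin, had a log2 fold change of 3.49 ± 0.42 (SE; edgeR adjusted p = 0.00291). Ddr1, a collagen receptor, stood at 3.18 ± 0.31 (SE; edgeR adjusted p = 0.00139). All 4 kept their calls in the 13 alternatives. The number that rose was 5 without Mettl3-deficient replicate 1 or wild type replicate 3. The list holds all 7 cholangiocyte markers described next. The defining bile duct keratins were not called, Krt19 at 0.52 (edgeR adjusted p = 0.458) and Krt7 at 0.42 (edgeR adjusted p = 0.484).

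Markers of other cell types moved with these genes in part, and their share in the levels of Sox9, Prom1, Cd24a and Sox4 was not tested. Over all tested genes, 13.3% were called higher and 10.5% lower. Of 7 cholangiocyte markers 2 rose, and their summed level was 69.8 to 225 CPM in Mettl3-deficient livers and 74.2 to 106 CPM in wild-type livers. Most of each sum was Spp1, with 51.3 to 181 CPM and 59.3 to 98.2 CPM in the same groups, which was not called. The sums thus say little of the other markers. All 7 had a log2 fold change above 0, with a median of 0.60, against 0.01 over all tested genes. The number of cholangiocyte markers that rose was 1 when Mettl3-deficient replicate 1 or 3 or wild type replicate 2 or 3 was left out. Of 5 monocyte and neutrophil markers 4 rose, with sums of 14.2 to 17.7 CPM in Mettl3-deficient livers and 5.20 to 6.29 CPM in wild-type livers. Ccr2 alone of these stayed called without Mettl3-deficient replicate 1 or 2 or wild type replicate 2, and 2 were called when wild type replicate 3 was left out, with the replicate block or with the Y-linked covariate. The B cell markers, which bear on Cd24a, did not include a called gene among 5, with sums of 6.23 to 8.32 CPM in Mettl3-deficient livers and 5.34 to 9.94 CPM in wild-type livers. T cell sums were 3.12 to 3.54 CPM in Mettl3-deficient livers and 0.568 to 1.84 CPM in wild-type livers, with none of 4 called (1 by DESeq2 and when wild type replicate 2 was left out, 2 with library size alone). Kupffer, endothelial and stellate markers, 6, 5 and 6 genes, held no called gene with TMM scaling and no covariate over all 6 libraries. All 6 Kupffer markers had a log2 fold change above 0, with a median of 0.85. Their sums were 279 to 563 CPM in Mettl3-deficient livers and 79.3 to 332 CPM in wild-type livers. Median log2 fold changes of the endothelial and stellate markers were 0.087 and 0.047. With the Y-linked covariate 1 stellate marker was higher. Library size alone called 1 Kupffer and 1 stellate marker higher, and 1 endothelial marker was lower without wild type replicate 1. Mesothelial markers fell for 2 of 3 genes, and erythroid markers for 1 of 3 tested, Klf1. Both counts were 0 when Mettl3-deficient replicate 1 was left out, and 1 mesothelial marker was called when Mettl3-deficient replicate 2 or wild type replicate 2 was. No listed marker in the files was at 0 in all libraries.

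Of 15 further fetal and oncofetal genes only 6 had enough counts to test, with a median log2 fold change of 0.21. That median was 0.69 with library size alone, 0.78 with no filter, 0.80 with the Y-linked covariate, and 0.72 when wild type replicate 3 was left out. Bex1, a small adaptor protein of neural and progenitor cells, was the 1 gene of these 6 that rose, where 13.3% of all tested genes rose. It had 3.26 ± 0.981 CPM in Mettl3-deficient livers and 0.478 ± 0.425 CPM in wild-type livers (edgeR adjusted p = 0.0258). Its call was lost without Mettl3-deficient replicate 1 or 2 or wild type replicate 3. Epcam, an adhesion molecule of ductal and progenitor cells, had a log2 fold change of 1.61 and was not called (edgeR adjusted p = 0.0586), though 4 of the 13 alternatives called it. DESeq2, library size alone, the Y-linked covariate and the fit without wild type replicate 1 each called 2 of these genes higher, and the fits without Mettl3-deficient replicate 1 or wild type replicate 3 called 0. The m6A-reading, Igf2-binding proteins Igf2bp2 and Igf2bp3 had log2 fold changes of -0.14 and -0.057 and were not called (edgeR adjusted p = 0.810 and 0.965). Hmga2, Lin28a, Lin28b and Igf2bp1, regulators of the fetal growth program, did not pass the filter on low counts.

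Imprinted genes other than H19, Igf2 and Dlk1 went both ways. Of 17 tested, 3 rose and 1 fell, where 13.3% of all tested genes rose and 10.5% fell. Their median log2 fold change was -0.35 (0.11 with library size alone). Phlda2, which restrains placental growth, had 12.8 ± 7.22 CPM in Mettl3-deficient livers and 0.0947 ± 0.164 CPM in wild-type livers (SD, n = 3; edgeR adjusted p = 0.00650), Igf2r rose 3.21-fold and Grb10, an inhibitor of insulin and IGF receptors, 2.83-fold. Igf2r and Phlda2 were called in all 13 alternatives, and Grb10 not without Mettl3-deficient replicate 2 or wild type replicate 2. Sgce fell (log2 fold change -0.95), a call lost when any library but wild type replicate 2 was left out. Meg3, the noncoding RNA transcribed from the Dlk1 region, had 1.31 ± 0.296 CPM in Mettl3-deficient livers and 2.42 ± 0.557 CPM in wild-type livers and was not called (edgeR adjusted p = 0.0968).

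Among receptors and binding proteins of the insulin-like growth factors, 2 of 15 tested genes rose and 3 fell, with a median of -0.36 (0.09 with library size alone). The number that rose is near the 13.3% of all tested genes called higher, where 10.5% were called lower. Igf2r, the receptor that clears Igf2 from the cell surface, averaged 90.1 CPM in Mettl3-deficient livers and 28.0 CPM in wild-type livers (log2 fold change 1.68 ± 0.21, SE; edgeR adjusted p = 0.00319). Igfbp1 had 191.9 ± 57.2 and 52.7 ± 28.7 CPM in the same groups. Igf1, the postnatal counterpart of Igf2, had 296 ± 107 and 781 ± 44.8 CPM, and Igfbp3 and Igfbp4, which bind it, fell 2.47- and 2.34-fold. Igfbp1 was not called without Mettl3-deficient replicate 2 or 3, and Igf1 not without wild type replicate 2 or 3. Igfbp3 was lost without Mettl3-deficient replicate 1 or wild type replicate 2 or 3, and Igfbp4 was kept only without wild type replicate 1 among fits that left out a library. Those that fell numbered 1 without Mettl3-deficient replicate 1, 0 without wild type replicate 2, 6 with DESeq2 and 1 with library size alone or the Y-linked covariate.

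Relatives of the members gave these counts, where 13.3% of all tested genes were called higher and 10.5% lower. None of 7 other tested Sox genes rose (median log2 fold change -0.37, and 0.10 with library size alone), and Sox6 fell (log2 fold change -0.71, edgeR adjusted p = 0.0217), a call lost without Mettl3-deficient replicate 1 or 2 or wild type replicate 2 or 3. Glypicans and syndecans had a median log2 fold change of 0.13, which was -0.26 with the CPM filter, -0.13 without wild type replicate 1 and -0.063 without Mettl3-deficient replicate 2. Of these 8 genes 0 rose and 2 fell, the syndecans Sdc4 (log2 fold change -1.56) and Sdc2 (-0.81), with 0 lower when Mettl3-deficient replicate 1 or wild type replicate 2 or 3 was left out and 1 without Mettl3-deficient replicate 2. In the Notch pathway, to which Dlk1 is related and which acts upstream of Sox9 in duct formation, 2 of 17 genes rose (median 0.22), a share near the 13.3% of all tested genes called higher. Notch2, the receptor of duct formation, rose 1.90-fold (edgeR adjusted p = 0.00855) in all 13 alternatives, and the target Hes1 rose 1.51-fold (edgeR adjusted p = 0.0476), called without Mettl3-deficient replicate 2 and lost when any other library was left out. Library size alone called 8 Notch genes higher, and without wild type replicate 1 there were 2 lower.

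**Figure D4:**
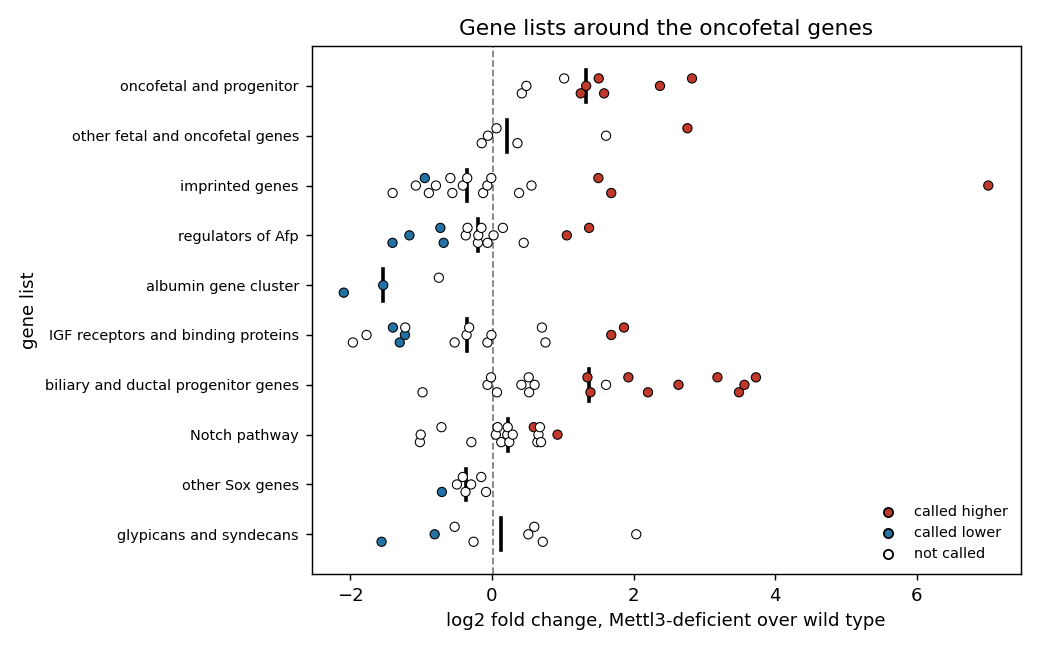
Log2 fold change (Mettl3-deficient over wild type) of every tested gene in the oncofetal set and 9 related lists, red where called higher, blue where called lower and white where not called. Black bars are list medians and the dashed line is the median of all tested genes, 0.01. Called genes are on the right for the oncofetal and the biliary lists and on the left for the albumin cluster.

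The genes whose log2 CPM followed each member most closely over the 6 libraries were drawn from 12047 candidates. For Prom1 these were Ccna2 and Cdk1, cyclin and kinase genes of the cell cycle (Pearson r = 0.999 and 0.998), and for Sox9 the cyclin gene Ccnd2 and Emp3 (0.999 and 0.998). Rhou was followed by Bex2 and Smyd5 (0.997 and 0.996), Sox4 by Sec61a2 and Endod1 (0.997 each), and Cd24a by Raet1d and Rdh18-ps (0.994 and 0.989). Afp was followed by Ttc3 and Slc7a4 (0.998 and 0.997), Gpc3 by Osbpl11 and Galk2 (0.994 and 0.991), H19 by Jak3 and Itih3 (0.998 and 0.997) and Igf2 by Yy2 and Alms1 (0.981 and 0.969). These are the highest of many values over 6 points, which share libraries and, for the called genes, a difference between genotypes.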

How the data were processed

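Total RNA of 6 mouse livers was sequenced as directional, rRNA-depleted libraries, per the labels' protocols. Per the submitters' processing notes, HISAT2, featureCounts and the build mm10 were used; no version, annotation or strand setting was given there. Each deposited file holds whole counts by Entrez gene, which the authors had not normalized. Symbols came from the RefSeq table of GRCm38.p6 (25275 of 27179 identifiers matched), exon lengths and transcripts from GENCODE M21.

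Counts were fitted in edgeR 4.0.16 under R 4.3.3 with TMM factors, genotype as the design and a robust two-sided quasi-likelihood F test. filterByExpr (minimum count 10, minimum total 15) left 14380 genes, and Benjamini-Hochberg adjustment ran over all of them. A run of the fit on simulated data is not reported here, and no result rests on it. An SE is the size of the log2 fold change divided by the root of F. Motif and order counts are descriptions, and the GGACT counts and the interaction test were added after seeing the data. Depth limits low genes: Igf2 and Dlk1 had few counts.

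Alternatives were RLE factors, library size alone, DESeq2 1.42.0, no filter, a CPM filter (at least 1 in 3 libraries), a block for replicate number, a covariate for libraries with over 100 Y-linked counts, and each library left out. The members, lists and tests were chosen with earlier results of these data known. The named genes were the members, Mettl3, up to 4 genes per list by p and the 2 closest in pattern to each member; other genes were named after their values were seen. Results for some list genes are not reported here.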

Additional observations from a re-analysis of the deposited data

How the results depend on the processing

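Sox4 and Rhou were called in each of the 13 alternatives, and Afp in 12, Gpc3 in 9, Sox9 in 8, Prom1 in 5 and Cd24a in 3. The number of members called higher was 2 to 6 when 1 library was left out (2 when wild type replicate 2 was out, 3 when wild type replicate 3 was, 3 when Mettl3-deficient replicate 3 was) and none was called lower. Over all genes, those fits called 840 to 1932 higher and 518 to 1582 lower, and library size alone called 4810 higher and 595 lower, so 89.0% of calls were higher against 55.7% with TMM. With that scaling 7 members were called higher, relative to a median shift of all genes of 0.49 on the log2 scale. The replicate block called 5 members, since Prom1 was lost (adjusted p = 0.193), and changed no other member's call. Same-numbered livers did not deviate together (correlations of deviations of 0.084, -0.017 and 0.034), so the numbers were not taken to pair them. With 1 library left out the log2 fold change of H19 was -0.093 to 1.07 and that of Igf2 -0.65 to 0.89. Both were below 0 without Mettl3-deficient replicate 3, as was H19 without wild type replicate 1 (-0.050), in fits with fewer samples. Leaving out 1 library leaves 2 samples in a group, and calls lost there do not show that a change is absent. Depth limits Igf2 and Dlk1.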
